A study of Mus musculus with 45 samples.

Results

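The transcripts described here are those of 10 genes for iron handling and heme synthesis in the livers of female C57BL/6 mice given TCDD, the dioxin that is the best known ligand of the AhR (aryl hydrocarbon receptor). They were chosen by name as genes of the hepcidin system, iron transport and the heme pathway with a link to dioxin porphyria, and they are 10 of the 39179 genes in the count files. All 10 were among the 17464 genes detected, that is, with more than 4 reads in at least 1 liver. The genes are *Hamp* and *Hamp2* (hepcidin), *Slc40a1* (ferroportin), *Tfrc* (transferrin receptor), *Trf* (transferrin), *Hpx* (hemopexin), and the heme synthesis enzymes *Alas1*, *Urod*, *Cpox* and *Fech*.

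Liver RNA was sequenced from 45 mice in 9 groups of 5. The vehicle group received sesame oil and the other groups received TCDD by gavage. The 4 lower doses were 0.01, 0.03, 0.1 and 0.3 µg/kg, and the 4 higher doses were 1, 3, 10 and 30 µg/kg. A dose was given every 4 days, and the livers were collected at 28 days. The labels call the mice ovariectomized and the gavage daily, while the study's methods mention no ovariectomy and give the 4-day schedule used here. The 8 dose comparisons share the 5 vehicle mice, so they are not independent of each other.

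Hepcidin is a peptide hormone made by hepatocytes that binds ferroportin, the iron exporter, and has it degraded, so that less iron leaves the gut and the macrophages. Its transcription in the liver is driven by bone morphogenetic protein (BMP) signaling through SMAD factors and by interleukin signaling through STAT3. Heme is built from glycine and succinyl-CoA in a chain of enzymes that starts with aminolevulinate synthase and ends when ferrochelatase inserts iron, and loss of uroporphyrinogen decarboxylase activity gives the uroporphyria for which dioxins are known.

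Mice carry 2 hepcidin genes, *Hamp* (chr7:30942368-30944032, minus strand, GRCm38) and *Hamp2* (chr7:30922372-30924681, minus strand), which are near copies. Of the 361 windows of 50 bases in the *Hamp* transcript, 60 occurred letter for letter in a *Hamp2* transcript and 221 did so within 2 mismatches. Reads were 50 bases long, so the counts of these genes are uncertain to the extent that reads from the shared windows were dropped or placed on the other gene.

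The 250 bases before the start of each gene are shown because BMP and STAT3 signals act there in hepcidin genes. They are from the RefSeq promoter table (GRCm38.p6), read 5′ to 3′, with capitals at matches to GGCGCC, the core of the BMP response element, and to TTCNNNGAA, the STAT site.
Hamp promoter, chr7:30944030-30944279, minus strand: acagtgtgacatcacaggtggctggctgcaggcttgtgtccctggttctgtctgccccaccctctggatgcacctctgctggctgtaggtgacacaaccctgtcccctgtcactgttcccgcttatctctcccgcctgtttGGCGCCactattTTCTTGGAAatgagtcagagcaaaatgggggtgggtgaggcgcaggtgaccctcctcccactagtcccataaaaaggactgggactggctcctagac
Hamp2 promoter, chr7:30924182-30924431, minus strand: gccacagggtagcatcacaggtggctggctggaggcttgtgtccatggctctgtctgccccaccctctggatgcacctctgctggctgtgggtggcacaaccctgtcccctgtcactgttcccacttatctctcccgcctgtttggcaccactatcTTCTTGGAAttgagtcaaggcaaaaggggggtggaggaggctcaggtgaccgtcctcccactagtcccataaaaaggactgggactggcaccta
Aligned end to end, these 250-base stretches were identical at 227 of 253 positions, gaps included (89.7%). GGCGCC, which reads the same on both strands, stood 109 bases before the start of *Hamp*. At the aligned place *Hamp2* differed from it by G4A, counted from 1 at the 5′ end of the element, and it held no match. TTCNNNGAA, likewise the same on both strands, was found in both, 97 bases before the start of *Hamp* and 94 before that of *Hamp2*. GCGTG, the core of the dioxin response element, was searched on both strands and was in neither.

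The table held 9 promoters for 7 of the 10 genes (*Hamp*, *Hamp2*, *Tfrc*, *Alas1*, *Urod*, *Cpox* and *Hpx*). Over the full window of 250 bases before to 50 after the start, GCGTG was in 5 of them (the 2 of *Tfrc*, the 2 of *Alas1* and that of *Cpox*) and in 32.4% of all 32851 promoters of that length. GGCGCC was in 3 (*Hamp*, 1 of *Tfrc* and *Urod*) against 11.9% of all, and TTCNNNGAA was in 3 (*Hamp*, *Hamp2* and 1 of *Alas1*) against 8.30% of all. In the promoters shown the matches did not overlap. These matches are letters in a window and were not tested as binding sites.

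The count files held 11767284 to 56509899 reads on genes per liver (median 17225047), and the least covered member, *Hamp2*, still had 139 reads in its lowest library. Values below are CPM, reads scaled to the library size after TMM normalization. The liver label was borne out by albumin, *Alb*, at 90969 to 122700 CPM in the vehicle mice. The AhR target *Cyp1a1* rose from a mean of 7.498 CPM in the vehicle group to one of 7627 CPM at 30 µg/kg (5 mice each, adjusted p = 1.07e-12 in edgeR's quasi-likelihood test). Of the 45 libraries, 3 stood apart. Mouse L21 (0.01 µg/kg) had 2.93 CPM of *Xist* against 1112 to 2843 in the other mice, with 0 reads on 4 Y-linked genes in any mouse. Mice L24 (0.01 µg/kg) and L40 (0.1 µg/kg) had high acute phase transcripts, with *Saa1* at 130 and 348 CPM against 13.6 to 26.2 in the vehicle mice.

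In vehicle livers the members spanned over 2 orders of magnitude in level per length of exon. *Hamp* had the highest mean at 1802 CPM per kilobase, followed by *Hpx* at 1792, *Hamp2* at 937, *Trf* at 744 and *Alas1* at 138 CPM per kilobase. *Cpox* (25.3), *Urod* (25.0), *Slc40a1* (20.6), *Fech* (12.8) and *Tfrc* (9.43 CPM per kilobase) were lower. The ranges over the 5 vehicle mice overlapped between *Hamp* and *Hpx*, *Hamp2* and *Trf*, *Cpox* and *Urod*, *Urod* and *Slc40a1*, and *Fech* and *Tfrc*, so these neighbors were not ordered beyond their spread. The order also depends on the length used, that of all exons of a gene merged. For *Hamp2* this was 583 bases, against 437 in its longest transcript. *Trf* shares 2108 of its 3320 exonic bases with the gene model *Gm20425*. Reads there may have been left out as ambiguous, so *Trf* may rank higher than shown.

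At 30 µg/kg 3 of the 10 members passed the test against vehicle (adjusted p under 0.05), and all 3 were lower (*Hamp*, *Hamp2* and *Slc40a1*). Among all 17464 genes tested, 29.6% passed at this dose, 15.5% as higher and 14.1% as lower, so the members' share of 3 in 10 was close to that of all genes. Their median log2 fold change was -0.03 and that of all genes was 0.02. The 30 µg/kg and vehicle groups did not overlap for 4 members, 3 below and 1 (*Cpox*) above, where 19.9% of all genes did not overlap. Without the 3 libraries that stood apart *Hpx* passed as well at 30 µg/kg, as higher, and 6 members passed at any dose. With library totals alone in place of TMM, which moved the median log2 fold change of all genes to 0.23, the share of called genes that were higher went from 52.3% to 80.3%, and the 4 members called were *Hamp* and *Hamp2* (lower) and *Cpox* and *Hpx* (higher). At 10 µg/kg 1 member passed (*Hamp2*, lower) with 15.9% of all genes, and at 3 µg/kg 2 members passed (*Hamp2*, lower, and *Cpox*, higher) with 7.54% of all genes.

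At 1 µg/kg and below, edgeR called 0 members. The share of all genes called was 0.0% at 0.01, 0.0573% at 0.03, 0.0229% at 0.1, 0.464% at 0.3 and 1.76% at 1 µg/kg. At an unadjusted p under 0.05 there were 2 members at 0.01 µg/kg (*Hamp2* and *Hpx*), 3 at 0.03 (*Hamp*, *Hamp2* and *Urod*), 0 at 0.1, 1 at 0.3 (*Cpox*) and 2 at 1 µg/kg (*Hamp2* and *Trf*). The share of all genes under this unadjusted threshold was 10.1% at 0.01, 11.7% at 0.03, 5.15% at 0.1, 10.5% at 0.3 and 13% at 1 µg/kg. DESeq2 also called 0 at each of these doses. In the test for a difference at any of the 8 doses, 4 members passed (*Hamp*, *Hamp2*, *Slc40a1* and *Urod*) with 28.8% of all genes.

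*Hamp2* had the largest decrease of the 10 members at 30 µg/kg. The 5 vehicle mice had 296, 512, 551, 672 and 699 CPM. The 5 mice at 30 µg/kg had 7.96, 28.2, 34.2, 44.6 and 79.7 CPM. Every mouse at 30 µg/kg lay below the lowest vehicle mouse, and the group mean fell from 546 ± 160 to 38.9 ± 26.4 CPM (SD, n = 5 each). The fitted log2 fold change was -3.81 ± 0.47 (SE), which is 14.01-fold lower, with an adjusted p of 2.79e-08 by edgeR's quasi-likelihood test.

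The estimated decrease of *Hamp2* against vehicle grew from 3 to 10 to 30 µg/kg. The 3 and 10 µg/kg groups overlapped and were not tested against each other. The step from 10 to 30 µg/kg did not pass. The 5 mice at 3 µg/kg had 72.2, 136, 156, 157 and 289 CPM (log2 fold change -1.75 ± 0.43, adjusted p = 0.00788 in edgeR). The 5 mice at 10 µg/kg had 58.7, 59.3, 61.2, 121 and 181 CPM (-2.51 ± 0.45, adjusted p = 5.96e-05 in edgeR). Neither group overlapped with the vehicle mice, although at 3 µg/kg the highest mouse, at 289 CPM, was close to the lowest vehicle mouse, at 296 CPM.

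Below 3 µg/kg the *Hamp2* group means also lay below that of the vehicle, without an order by dose. The 5 mice at 0.01 µg/kg had 144, 196, 217, 279 and 337 CPM, of which only the highest exceeded the lowest vehicle mouse. Their log2 fold change was -1.22 ± 0.43, with an adjusted p of 0.342 in edgeR. The means were 276 CPM at 0.03, 304 at 0.1, 358 at 0.3 and 272 CPM at 1 µg/kg, each with groups that overlapped the vehicle mice and with adjusted p-values of 0.353, 0.893, 0.632 and 0.281 by edgeR. All 8 dose means were below the vehicle mean, but the doses share that vehicle group, whose mean each comparison uses.

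*Hamp*, the gene for the hepcidin that acts on iron, fell less and passed only at the highest dose. The 5 vehicle mice had 586, 675, 716, 841 and 878 CPM. Those at 30 µg/kg had 191, 231, 266, 389 and 421 CPM. The groups did not overlap, and the log2 fold change of -1.30 ± 0.29 (2.47-fold lower) had an adjusted p of 0.000643 in edgeR.

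At 10 µg/kg *Hamp* was at 381, 414, 417, 440 and 674 CPM. The 4 lower of these mice were below all vehicle mice and the fifth was within their range, and the log2 fold change of -0.67 ± 0.29 did not pass (adjusted p = 0.113 in edgeR). At the 6 lower doses the *Hamp* means ranged from 470 CPM at 0.03 µg/kg to 710 CPM at 0.1 µg/kg, with mice from 210 to 1013 CPM. Within groups the spread was wide, with a highest to lowest ratio of up to 4.10 for *Hamp* and 10.0 for *Hamp2*.

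**Figure D1:**
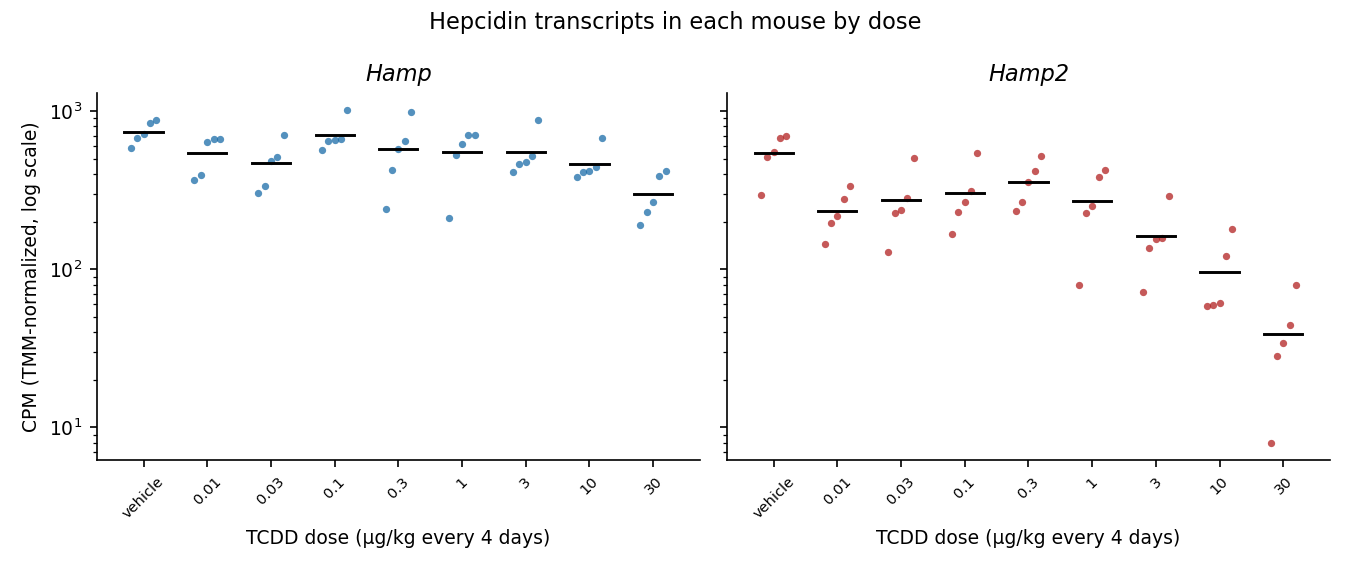
*Hamp* (left) and *Hamp2* (right) in each of 45 livers, as TMM-normalized CPM on a log axis, against the TCDD dose. Points are mice (5 per dose, spread sideways by level) and bars are group means. *Hamp2* fell to 7.96 to 79.7 CPM at 30 µg/kg, while *Hamp* stayed between 191 and 421 CPM.

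The balance between the hepcidin genes was compared as the log2 ratio of *Hamp* to *Hamp2* within each mouse, with 0.1 CPM added to each. In the vehicle mice the log2 ratio was -0.05, 0.19, 0.39, 0.61 and 1.27. At 30 µg/kg it was 2.09, 2.40, 3.24, 3.51 and 4.84. Every mouse at 30 µg/kg was above every vehicle mouse, and the mean log2 ratio rose by 2.73, a 6.65-fold shift toward *Hamp* (exact two-sided permutation test, p = 0.00794, n = 5 each, the smallest p that 5 against 5 mice can give). The mean log2 ratio was 1.84 at 3 µg/kg and 2.40 at 10 µg/kg, and between 0.60 and 1.31 at the 5 lower doses against 0.48 in vehicle. These intermediate doses were not tested.

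**Figure D2:**
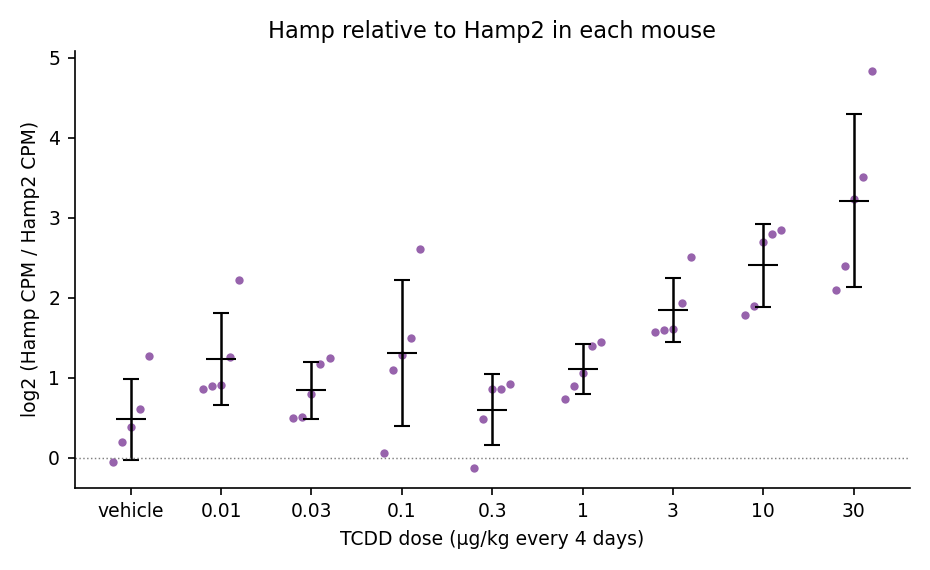
The log2 ratio of *Hamp* to *Hamp2* CPM in each liver (points) against the TCDD dose, with the group mean and SD (bars, n = 5). The 5 vehicle mice ran from -0.05 to 1.27, and the 5 mice at 30 µg/kg, from 2.09 to 4.84, were all above them.

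Between the 2 highest doses, edgeR called 0 members, where 0.613% of all genes passed. At an unadjusted p under 0.05 there were 3 members (*Hamp*, *Hamp2* and *Fech*), with 7.56% of all genes. The *Hamp2* log2 fold change from 10 to 30 µg/kg was -1.30 ± 0.43 (adjusted p = 0.225 in edgeR). The groups overlapped, with 1 mouse at 30 µg/kg (79.7 CPM) above the median of 61.2 CPM at 10 µg/kg. The *Hamp* log2 fold change over this step was -0.63 ± 0.29 (adjusted p = 0.594 in edgeR).

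Over all 45 mice, *Hamp2* followed *Hamp* with a Spearman rho of 0.72, and of 0.53 once group means were taken out. The 5 genes whose levels were most like those of *Hamp* over the 45 mice, among 13609 genes with a mean of at least 10 reads, were *Slc27a5* (rho 0.83), *Hsd17b10* (0.79), *Gm16373* (0.77), *Ppp1r1b* (0.75) and *Apoc3* (0.75). *Slc27a5* conjugates bile acids with coenzyme A and *Apoc3* is an apolipoprotein of triglyceride-rich particles. With group means taken out the rho of *Slc27a5* with *Hamp* was 0.76. These values are descriptions over mice that share dose groups.

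The genes that control hepcidin moved in both directions at 30 µg/kg. Of the 21 detected genes of 22 listed, 3 rose, 6 fell and 12 did not pass, where 29.6% of all genes passed. The median log2 fold change was 0.02, equal to that of all genes. *Erfe*, the erythroid hormone that lowers hepcidin, was the listed gene that was not detected. The ligand *Bmp6*, which endothelial cells of the liver make in response to iron, rose from 1.83 to 2.76 CPM (log2 fold change 0.59 ± 0.22, adjusted p = 0.0424 in edgeR). Its call was lost without any of 6 of the 10 mice in turn, and 3 of the 5 endothelial markers listed rose at this dose. The sum of all 5 was 117 to 151 CPM in vehicle and 137 to 217 CPM at 30 µg/kg, and its part in the *Bmp6* change was not tested. The BMP receptor *Acvr1* rose from 15.4 to 22.4 CPM (0.54 ± 0.10), and *Atoh8*, a transcription factor that iron raises in the liver, from 10.0 to 23.3 CPM (1.21 ± 0.21). *Atoh8* was already higher at 3 µg/kg (0.70 ± 0.21, adjusted p = 0.0308 in edgeR).

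Receptors and cofactors of the BMP and transferrin signals were among the 6 control genes that fell. *Tfr2*, the transferrin receptor that senses iron, fell from 291 to 221 CPM (-0.40 ± 0.08), with no overlap between the groups. *Tmprss6*, the protease that restrains BMP signaling, fell from 344 to 258 CPM (-0.41 ± 0.09), again without overlap. *Hfe2*, which encodes the BMP coreceptor hemojuvelin, went from 70.3 to 48.6 CPM (-0.54 ± 0.19, adjusted p = 0.0288 in edgeR), with overlap, and this call was lost without any of 6 of the 10 mice in turn.

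*Bmpr1a* (-0.33 ± 0.07), *Acvr2a* (-0.31 ± 0.11) and *Smad4* (-0.30 ± 0.08) made up the rest of the 6 that fell. With library totals alone *Tfr2*, *Tmprss6*, *Hfe2* and *Bmpr1a* stayed lower and did not pass. The BMP targets *Id1* (0.23 ± 0.34) and *Smad7* (0.42 ± 0.25) had adjusted p-values of 0.67 and 0.207 in edgeR and overlapping groups, and *Smad7* passed under library totals (0.64, adjusted p = 0.0358). *Smad7* also passed the test for any dose (adjusted p = 0.00632 in edgeR), with estimates below vehicle at 0.03 (-0.62 ± 0.25) and 0.3 µg/kg (-0.57 ± 0.25) and no single dose that passed.

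*Slc40a1* (chr1:45908068-45926523, minus strand) encodes ferroportin, the iron exporter on which hepcidin acts. The 5 vehicle mice had 161, 169, 175, 183 and 241 CPM. Those given 30 µg/kg had 93.8, 105, 114, 140 and 148 CPM. All treated mice were lower than all vehicle mice, and the log2 fold change was -0.63 ± 0.15 (1.55-fold lower), with an adjusted p of 0.00163 in edgeR.

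At 10 µg/kg the 5 mice had 140, 141, 145, 149 and 149 CPM of *Slc40a1*, again without overlap with vehicle, and -0.36 ± 0.15 did not pass (adjusted p = 0.106 in edgeR). It passed at this dose, with *Hamp2*, when the 3 libraries that stood apart were left out. At 3 µg/kg and below the *Slc40a1* means lay between 184 and 209 CPM, with adjusted p-values of at least 0.708 in edgeR. Under library totals the log2 fold change at 30 µg/kg was -0.41 (adjusted p = 0.0518 in edgeR).

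Ferroportin is also made by Kupffer cells, the liver macrophages. Of the 7 macrophage markers listed, 2 rose at 30 µg/kg (*Cd68*, 1.08 ± 0.35, and *Csf1r*, 1.16 ± 0.39) and 5 did not pass. All 7 were detected, and 29.6% of all genes passed at this dose. The summed level of these markers was 152 to 234 CPM in the vehicle mice (median 186) and 129 to 392 CPM at 30 µg/kg (median 363). Of 6 hepatocyte markers 4 fell, *Apoa1* (-1.67 ± 0.23), *Fga* (-0.87 ± 0.19), *Apob* (-0.44 ± 0.12) and *Ttr* (-0.34 ± 0.09). The summed level of the 6 was 112010 to 146296 CPM in vehicle and 105840 to 155021 CPM at 30 µg/kg. Most of that sum was *Alb*, which did not pass (-0.08 ± 0.11), so the sum says little of the other 5. The part of these cells in the *Slc40a1* and hepcidin changes was not tested, and in whole liver fewer cells of a type and less RNA per cell cannot be told apart.

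*Tfrc* (chr16:32608920-32632794, plus strand), the receptor that takes up transferrin-bound iron and whose mRNA is stabilized when iron is low, did not pass at any dose. The 5 vehicle mice had 21.05, 50.3, 68.3, 70.96 and 81.1 CPM. Those given 30 µg/kg had 65.1, 73.0, 74.9, 85.3 and 111 CPM. The groups overlapped, and the log2 fold change of 0.49 ± 0.41 (approximate 95% interval -0.31 to 1.30) had an adjusted p of 0.399 in edgeR. The largest *Tfrc* mean was at 3 µg/kg, where the mice had 61.2, 84.7, 109, 151 and 167 CPM (0.97 ± 0.41, adjusted p = 0.154 in edgeR).

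Within dose groups the highest *Tfrc* mouse had up to 5.52 times the level of the lowest. The 5 genes most like *Tfrc* over the 45 mice were *Mrps23* (rho 0.76), *Pde12* (0.75), *Bysl* (0.73), *Ftsj3* (0.72) and *Rcan1* (0.71), of which *Bysl* and *Ftsj3* serve ribosome assembly. Among the members, *Alas1* was the most like *Tfrc* (rho 0.56).

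*Trf* (chr9:103204001-103230444, minus strand), transferrin, the iron carrier of plasma, was nearly level. Vehicle mice had 1858, 2034, 2675, 2754 and 3028 CPM. Mice at 30 µg/kg had 2119, 2313, 2340, 2753 and 2836 CPM. The groups overlapped throughout, with a log2 fold change of 0.00 ± 0.13 (approximate 95% interval -0.25 to 0.26). The lowest *Trf* mean was at 1 µg/kg, with 1719 to 2169 CPM (-0.31 ± 0.13, adjusted p = 0.276 in edgeR). *Trf* shares 2108 exonic bases with the same-strand gene model *Gm20425*, which had 0.0 reads on average in these files, so reads in the shared part may have been left out as ambiguous.

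Of the 15 listed genes for iron uptake, storage and export, all detected, 1 rose, 3 fell and 11 did not pass at 30 µg/kg. Among all genes 29.6% passed at this dose, so the share of the list was close to that of all genes. The median log2 fold change of the list was -0.02. *Ireb2*, which encodes the iron regulatory protein that binds ferritin and transferrin receptor mRNA when iron is low, fell from 187 to 107 CPM (-0.81 ± 0.16) without overlap. *Aco1*, the aconitase that doubles as the other iron regulatory protein, fell from 307 to 232 CPM (-0.41 ± 0.10), and *Slc39a14*, an importer of iron not bound to transferrin, from 261 to 169 CPM (-0.62 ± 0.16). *Aco1* stayed lower and did not pass under library totals (-0.20, adjusted p = 0.0529 in edgeR).

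*Heph*, a ferroxidase that works beside ferroportin, rose from 1.41 to 2.50 CPM (0.82 ± 0.22). The ferritin chains *Fth1*, 1064 CPM in vehicle and 1190 CPM at 30 µg/kg (0.16 ± 0.11), and *Ftl1*, 382 and 429 CPM (0.16 ± 0.16), did not pass, with adjusted p-values of 0.269 and 0.492 in edgeR. Under library totals *Fth1* passed (0.37, adjusted p = 0.00658 in edgeR). Ferritin synthesis is controlled largely at translation, which these counts do not measure.

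**Figure D3:**
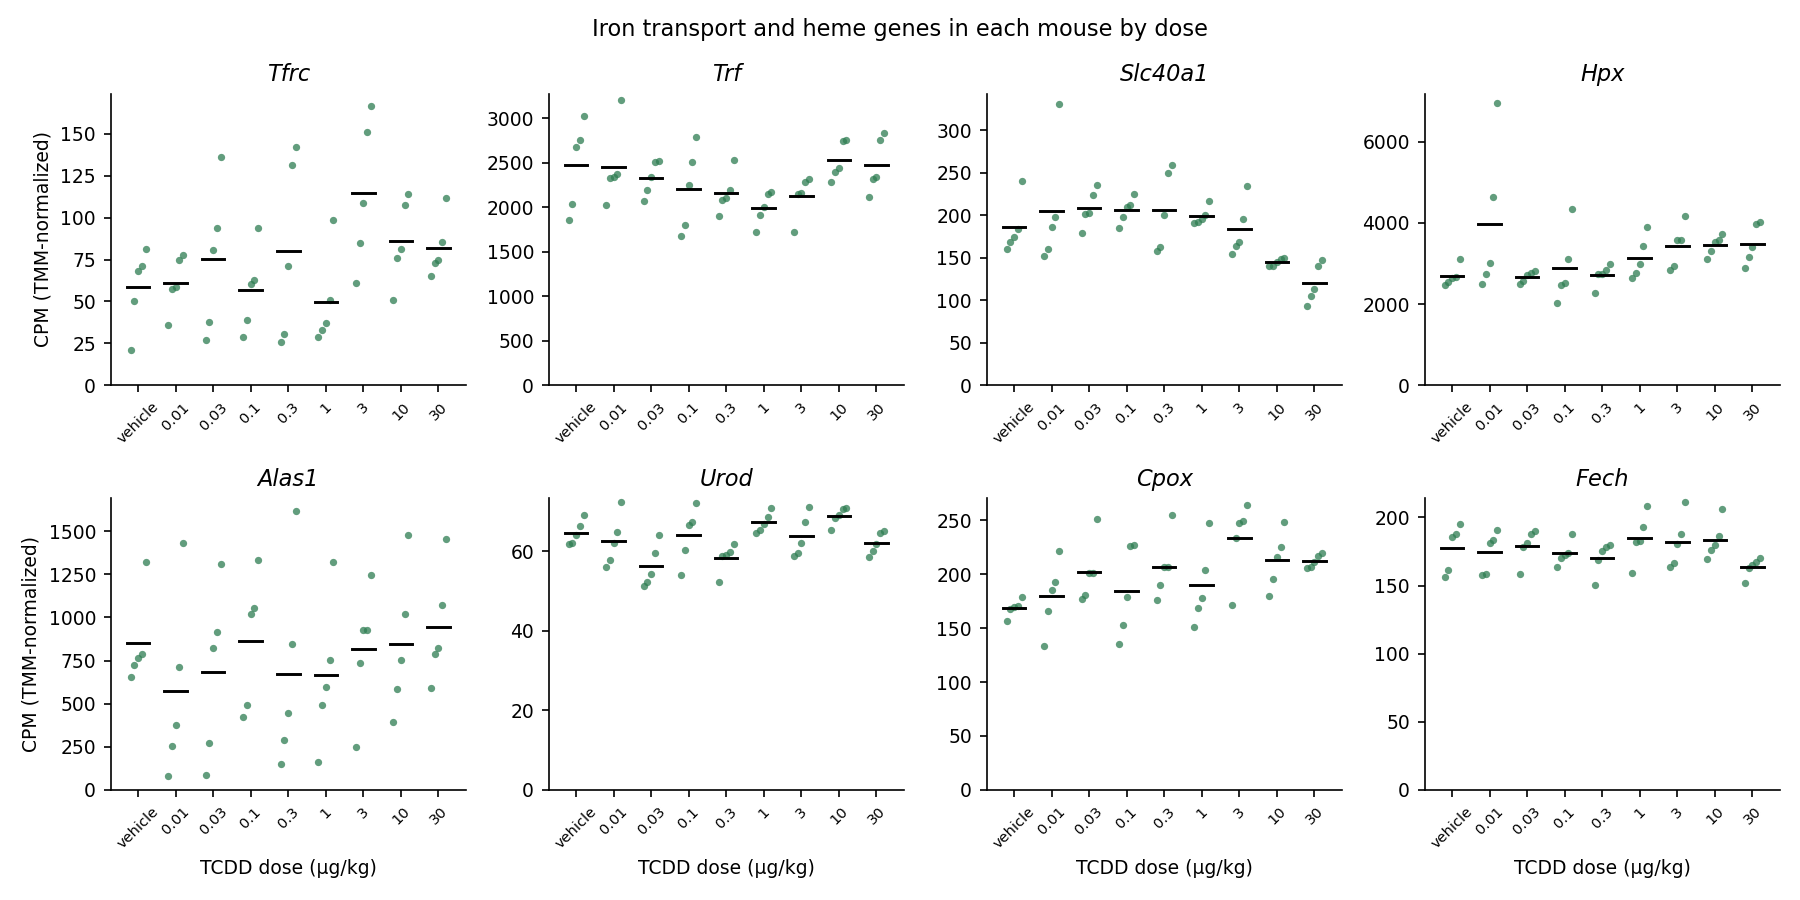
The other 8 members in each of 45 livers, as TMM-normalized CPM against the TCDD dose. Axes start at 0, points are mice and bars are group means of 5. *Slc40a1* fell to 93.8 to 148 CPM at 30 µg/kg, *Fech* and *Urod* stayed in narrow bands, and *Alas1* spread from 83.2 to 1615 CPM with no group apart.

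*Hpx* (chr7:105591613-105600137, minus strand) encodes hemopexin, the plasma protein that binds free heme and carries it to the liver. The vehicle mice had 2472, 2544, 2635, 2674 and 3103 CPM. The mice at 30 µg/kg had 2899, 3154, 3419, 3963 and 4014 CPM. The 4 highest of these were above all vehicle mice, and the log2 fold change of 0.38 ± 0.18 did not pass (adjusted p = 0.114 in edgeR). It passed at this dose without the 3 libraries that stood apart (0.36, adjusted p = 0.0292 in edgeR) and under library totals (0.59, adjusted p = 0.0115).

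Group means of *Hpx* were 2714 CPM at 0.3, 3145 at 1, 3425 at 3, 3455 at 10 and 3490 CPM at 30 µg/kg, against 2686 CPM in vehicle. At 10 µg/kg all 5 mice were above all vehicle mice (0.36 ± 0.18, adjusted p = 0.177 in edgeR). The highest single values were those of mice L24 and L22 at 0.01 µg/kg and L40 at 0.1 µg/kg. At 0.01 µg/kg the mice had 2488, 2750, 3022, 4644 and 6944 CPM (0.56 ± 0.18, adjusted p = 0.291 in edgeR). Mouse L24 had the 6944 CPM, and it also had *Hp* at 5812 and *Lcn2* at 179 CPM. Mouse L22 had 4644 CPM of *Hpx* with *Hp* at 1762 and *Lcn2* at 9.42 CPM, within or below the vehicle range of 1541 to 2075 CPM for *Hp* and 10.8 to 20.4 CPM for *Lcn2*.

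At 0.1 µg/kg mouse L40 had 4342 CPM of *Hpx* with *Hp* at 4549 CPM and the other mice had 2033 to 3106 CPM of *Hpx*. The 6 listed acute phase genes summed to 9865 CPM in L40, against 3923 to 5059 CPM in the vehicle mice. At 30 µg/kg 2 of these 6 genes rose (*Saa1* and *Saa3*), 2 fell (*Orm1* and *Fgb*) and 2 did not pass. Of all genes 29.6% passed at this dose. The sum of the 6 was 2268 to 2819 CPM, below every vehicle mouse. Most of this sum was *Fgb*, with a mean of 3815 CPM in vehicle and 2070 CPM at 30 µg/kg. *Saa1* was at 42.0 to 78.8 CPM at 30 µg/kg against 13.6 to 26.2 CPM in vehicle.

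*Hp*, haptoglobin, which binds free hemoglobin, fell at the upper doses. The vehicle mice had 1541, 1683, 1911, 2070 and 2075 CPM, and the mice at 30 µg/kg had 291, 309, 370, 436 and 484 CPM. The groups did not overlap, and the log2 fold change was -2.30 ± 0.26 (adjusted p = 4.48e-09 in edgeR). *Hp* had fallen by 1.07 on the log2 scale in the 3 µg/kg group and by 1.72 at 10 µg/kg.

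Among the 10 detected genes of heme breakdown and carriage, 3 rose, 1 (*Hp*) fell and 6 did not pass at 30 µg/kg. Their median log2 fold change was 0.16, and 29.6% of all genes passed at this dose. *Hmox1*, the inducible heme oxygenase, had 10.0 to 15.8 CPM in vehicle and 10.8, 22.7, 28.8, 31.9 and 34.4 CPM at 30 µg/kg. The 4 highest of these mice were above all vehicle mice (1.01 ± 0.29, adjusted p = 0.00663 in edgeR). *Slc48a1*, a heme transporter of the lysosome membrane, rose from 37.8 to 54.8 CPM (0.54 ± 0.10) and *Flvcr1*, a heme exporter, from 5.58 to 7.63 CPM (0.45 ± 0.17), both without overlap. *Hmox2* (-0.04 ± 0.08), *Blvra* (-0.09 ± 0.11) and *Blvrb* (0.15 ± 0.14), which carry heme breakdown through to bilirubin, did not pass.

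The heme synthesis enzymes were read in pathway order. Of the 7 enzymes examined, which include the members *Alas1*, *Urod*, *Cpox* and *Fech*, 3 passed at 30 µg/kg (*Alad*, *Uros* and *Ppox*, all lower), 1 at 10 µg/kg (*Alad*) and 3 at 3 µg/kg (*Alad*, *Ppox* and *Cpox*). Of all genes, 29.6% passed at 30, 15.9% at 10 and 7.54% at 3 µg/kg. At 1 µg/kg and below, 0 of the 7 passed in edgeR.

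*Alas1* (chr9:106233455-106248654, minus strand), the rate-limiting synthase of the liver, had the largest ratio between mice of a group among the 10 members. Vehicle mice had 652, 724, 762, 787 and 1323 CPM. Mice at 30 µg/kg had 593, 785, 820, 1072 and 1455 CPM. These groups overlapped fully, and the log2 fold change of 0.15 ± 0.58 left an approximate 95% interval of -0.99 to 1.30.

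The ratio of the highest to the lowest mouse for *Alas1* was largest at 0.01 µg/kg, where the mice had 83.2, 254, 376, 713 and 1430 CPM. The highest mouse had 17.2 times the level of the lowest in that group and at least 2.03 times in every other group. The SD was largest at 0.3 µg/kg, with 589 CPM against 533 CPM at 0.01 µg/kg. No dose passed for *Alas1*, with an adjusted p of 0.965 for any dose in edgeR, and a change within the interval given was not detectable with this spread. *Alas1* shares 465 exonic bases with the antisense gene *4930500F10Rik*, which had 0.222 reads per mouse on average.

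The gene most like *Alas1* over the 45 mice, looked up after its spread was seen, was *Noct* (rho 0.90, and 0.91 with group means taken out). *Noct*, or nocturnin, is known for a daily rhythm in the liver. It had 44.5 to 151 CPM in vehicle and 11.2 to 102 CPM at 0.01 µg/kg. *Dcun1d3* (0.88), *Nolc1* (0.88), *Tsku* (0.88) and *Rabl6* (0.86) came next. The labels do not give the hour at which a liver was taken, and its part in the spread was not tested.

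*Alad*, the second enzyme, which joins aminolevulinate into porphobilinogen, had the largest decrease of the 7 enzymes. Vehicle mice had 95.4, 113, 116, 129 and 152 CPM. Mice at 30 µg/kg had 51.1, 60.4, 68.6, 69.6 and 71.1 CPM. The groups did not overlap, and the log2 fold change was -0.92 ± 0.14 (adjusted p = 1.26e-06 in edgeR).

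The log2 fold change of *Alad* was -0.51 ± 0.14 in the 3 µg/kg group (adjusted p = 0.0148 in edgeR) and -0.52 ± 0.14 at 10 µg/kg (0.00585). *Uros*, which closes the porphyrin ring, fell from 23.5 to 18.8 CPM (-0.32 ± 0.11, adjusted p = 0.018 in edgeR), without overlap.

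*Urod* (chr4:116989965-116994413, minus strand), the decarboxylase whose loss of activity defines uroporphyria, hardly moved at the transcript level. Vehicle mice had 62.0, 62.1, 64.03, 66.5 and 69.1 CPM. Mice at 30 µg/kg had 58.6, 60.1, 61.9, 64.5 and 65.2 CPM. The groups overlapped, and the log2 fold change of -0.06 ± 0.08 had an approximate 95% interval of -0.21 to 0.09, which is narrow enough to leave out a change of 1.5-fold.

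*Urod* passed the test for any dose (adjusted p = 0.04 in edgeR) through small differences with no order by dose. Its means were 56.3 CPM at 0.03, 58.4 at 0.3, 67.3 at 1 and 68.9 CPM at 10 µg/kg against 64.7 in vehicle. At 0.3 µg/kg its mice, 52.4 to 61.9 CPM, all lay below the vehicle mice. No single dose passed, with the smallest adjusted p of 0.285 at 0.03 µg/kg in edgeR. Under library totals the log2 fold change at 30 µg/kg was 0.15, of the opposite sign.

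*Cpox* (chr16:58670292-58717636, plus strand), the mitochondrial oxidase that follows *Urod*, was the only member that rose at any dose. Vehicle mice had 157, 168, 169, 171 and 178 CPM. At 3 µg/kg they had 172, 233, 248, 250 and 264 CPM. The 4 highest of these were above all vehicle mice, and the log2 fold change was 0.47 ± 0.14 (adjusted p = 0.0271 in edgeR). The call was lost without any of 6 of the 10 mice in turn, with adjusted p-values of up to 0.0915 in edgeR.

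At 30 µg/kg the *Cpox* mice had 206, 207, 212, 217 and 220 CPM and did not overlap with vehicle. The log2 fold change of 0.33 ± 0.14 had an adjusted p of 0.0617 in edgeR, and it passed in a fit of the 2 groups alone (0.33, adjusted p = 0.00581), under library totals (0.55, adjusted p = 0.000901) and with edgeR's own filter (0.36, adjusted p = 0.0373). The group at 10 µg/kg, with 180 to 249 CPM, was likewise above all vehicle mice (0.34 ± 0.14, adjusted p = 0.0889 in edgeR). All 8 dose means of *Cpox* were above the vehicle mean, where the 5 vehicle mice had an SD of only 7.74 CPM. *Cpox* shares 204 exonic bases with the antisense gene *Gpr15*, which had 0.978 reads per mouse on average.

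*Ppox*, which comes after *Cpox*, went the other way, from 27.1 to 20.6 CPM at 30 µg/kg (-0.40 ± 0.11, adjusted p = 0.0056 in edgeR), a call lost under library totals (-0.19, adjusted p = 0.251). *Fech*, which inserts iron, closed the chain with little change. Vehicle mice had 156, 162, 186, 188 and 195 CPM. Mice at 30 µg/kg had 152, 163, 165, 167 and 170 CPM. The groups overlapped, with a log2 fold change of -0.12 ± 0.08 (adjusted p = 0.296 in edgeR), and over all doses no *Fech* estimate was beyond 0.12 in size. Under library totals its sign at 30 µg/kg turned to 0.10.

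**Figure D4:**
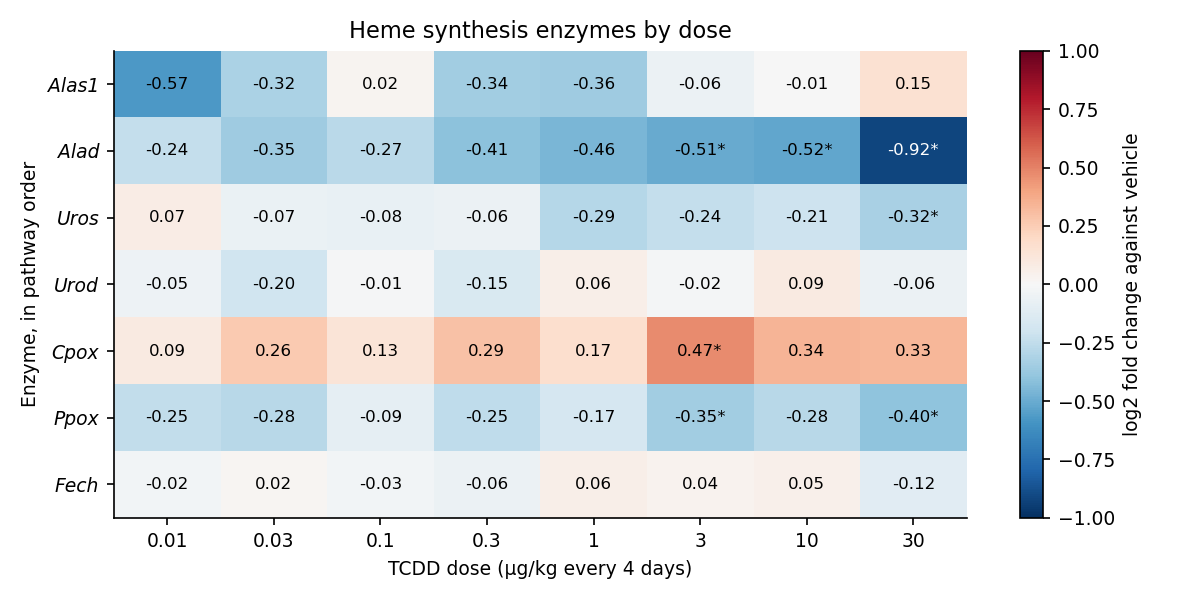
Log2 fold change against vehicle for 7 heme synthesis enzymes in pathway order (rows) at each TCDD dose (columns), with an asterisk where the adjusted p of edgeR was under 0.05. *Alad* (-0.92 at 30 µg/kg) and *Ppox* (-0.40) were lower, *Cpox* was higher with 0.47 at 3 µg/kg, and *Urod* and *Fech* stayed near 0.

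Outside the enzymes, the list of 10 heme synthesis genes also held *Alas2* and the carriers of substrates and iron. Of the 10, all detected, 2 rose, 5 fell and 3 did not pass at 30 µg/kg, where 29.6% of all genes passed. Their median log2 fold change was -0.20. *Slc25a28*, a mitochondrial iron importer, had 12.9 ± 2.13 CPM in vehicle and 27.5 ± 5.44 CPM at 30 µg/kg (SD, n = 5 each), and its log2 fold change was 1.09 ± 0.14. It had passed from 1 µg/kg upward, where it was 0.53 ± 0.14 (adjusted p = 0.0316 in edgeR). Its relative *Slc25a37* was at 87.0 and 86.5 CPM (-0.01 ± 0.15). The fallers beside the enzymes were *Tmem14c*, a porphyrinogen transporter (-0.63 ± 0.15), and *Abcb10*, a transporter of the inner mitochondrial membrane (-0.41 ± 0.10).

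*Alas2*, the synthase of red cell precursors, was low in these livers. Vehicle mice had 13.1, 13.4, 14.5, 14.5 and 14.9 CPM, and mice at 30 µg/kg had 19.0, 21.1, 23.4, 24.5 and 25.1 CPM. The groups did not overlap, and the log2 fold changes were 0.68 ± 0.13 at 30 µg/kg and 0.89 ± 0.13 at 10 µg/kg. *Alas2* was also above all vehicle mice in the lowest dose group, 0.01 µg/kg, with 19.4, 19.96, 21.8, 23.6 and 27.1 CPM (0.67 ± 0.13, adjusted p = 0.054 in edgeR), although the 5 doses from 0.03 to 3 µg/kg overlapped with vehicle.

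The erythroid markers moved with *Alas2* at the top dose. Of the 7 listed, 5 were detected, and all 5 rose at 30 µg/kg, where 29.6% of all genes passed. They were *Slc4a1* and the 4 globins, the latter by 0.90 to 1.12 on the log2 scale, each with groups that overlapped. At 10 and 0.01 µg/kg *Alas2* was also above all vehicle mice, and 0 of these 5 markers passed. At 0.01 µg/kg 0.0% of all genes passed, so the count there tells nothing of the markers. At 10 µg/kg 15.9% of all genes passed, and the median log2 fold change of the 5 markers was 0.69 against 0.02 for all genes. Their summed level was 54.4 to 72.9 CPM in vehicle, 37.2 to 143 CPM at 0.01 µg/kg, 67.0 to 151 CPM at 10 µg/kg, and reached 62.3 to 162 CPM at 30 µg/kg. *Slc4a1*, a membrane protein of red cells, was near 0, with up to 0.721 CPM at 30 µg/kg. The part of blood in the *Alas2* change was not tested.

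**Figure D5:**
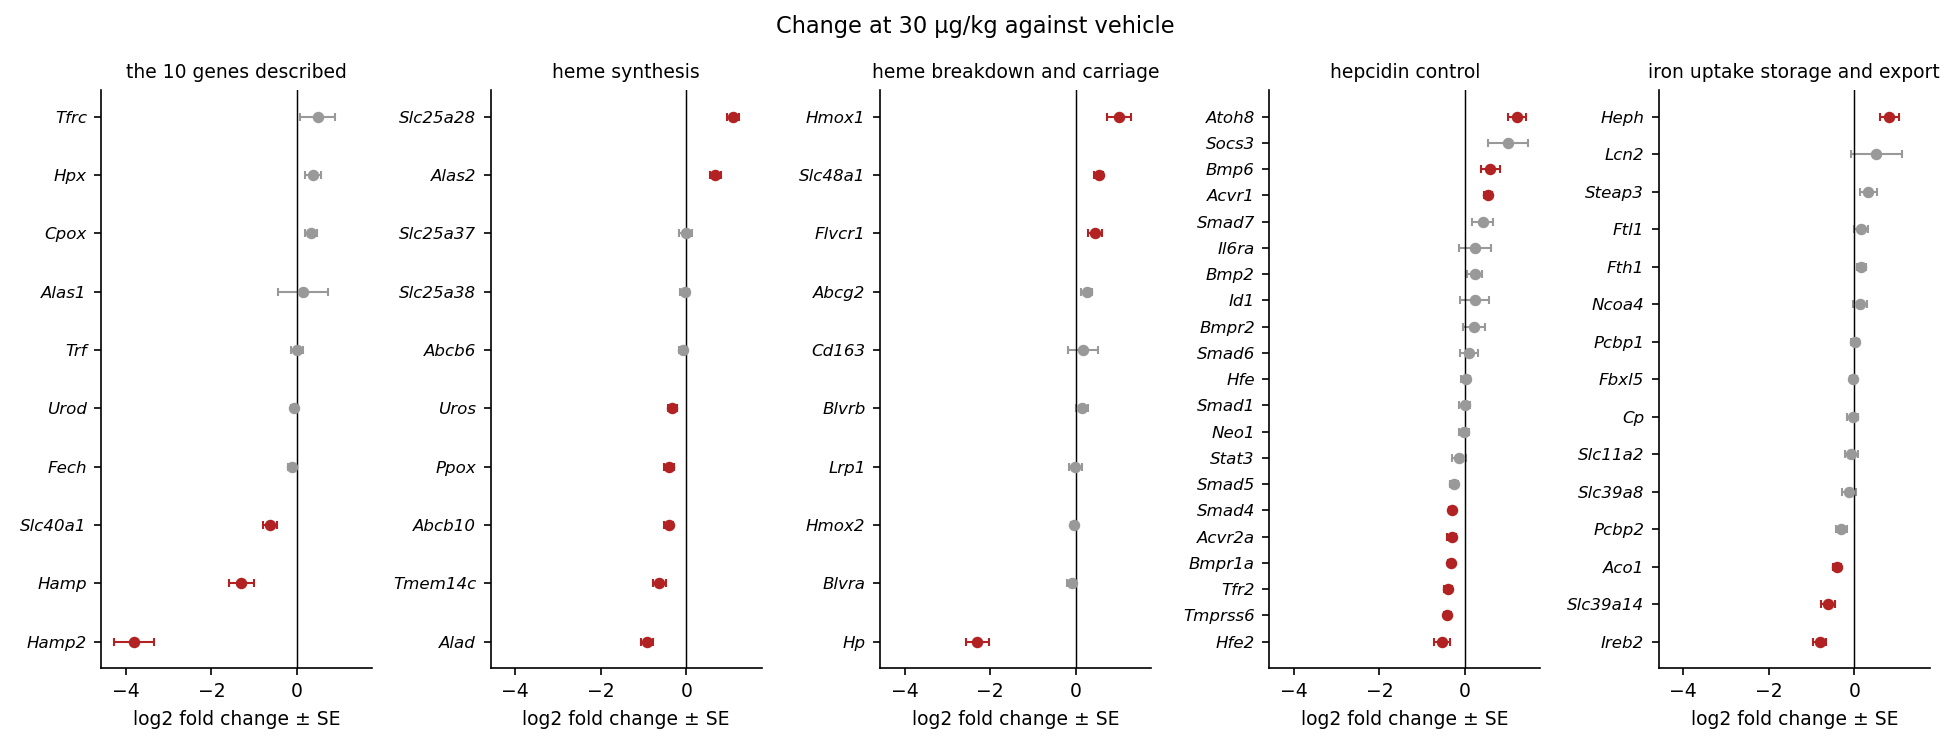
Log2 fold change (± SE) at 30 µg/kg against vehicle for the 10 members and for the detected genes of 4 related lists. Red points had an adjusted p under 0.05 in edgeR and gray points did not. *Hamp2* (-3.81), *Hp* (-2.30) and *Hamp* (-1.30) were the lowest points, and *Atoh8* (1.21) and *Slc25a28* (1.09) were the highest.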

How the data were processed

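RNA-Seq of liver from 45 mice was analysed as the count of reads per gene, which the authors deposited without normalization, 1 file per mouse. Per the study's methods and the submitters' processing notes, single reads of 50 bases were aligned to GRCm38 with TopHat 1.4.1 and counted on Ensembl genes with HTSeq 0.6.1, so that reads placed on more than 1 gene were left out. Of the reads aligned to 1 place, those on no gene were 9.11 to 17.1% per mouse, and ambiguous reads 1.34 to 2.07%. Alignments that were not unique lie outside these shares. They numbered from 8231611 in mouse L80 to 59345763 in mouse L40, beside 11767284 and 56509899 reads on genes. How many of them came from the hepcidin genes is not known. All of these were kept out of library sizes. The library kit does not mark strand, so a gene and its antisense partner cannot be told apart. Samples were pooled at random for sequencing, and no label tells which, so the pools could not be compared or adjusted for.

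Genes with more than 4 reads in any sample were tested in 1 quasi-likelihood fit of all 45 mice by edgeR 4.0.16 (R 4.3.3), with a coefficient for each group, TMM library scaling and Benjamini-Hochberg adjustment over all 17464 genes within each dose (adjusted p under 0.05). SEs were taken from the fold change and its F statistic, and intervals are 1.96 SEs. The fit was first tested on simulated data. The ratio of *Hamp* to *Hamp2* was compared with an exact permutation test in scipy 1.17.1. Gene symbols, positions and exon lengths (all exons of a gene merged) came from GENCODE M21, a later annotation than the one counted on. Promoters were aligned with Biopython 1.88, and figures were drawn with matplotlib 3.10.9.

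The members and the gene lists were chosen with earlier results of these data known. The genes named are the 10 members, the 3 genes with the smallest adjusted p at 30 µg/kg in each of 4 lists, and *Hmox1*, *Fth1*, *Ftl1*, *Tfr2*, *Bmp6*, *Hfe2*, *Tmprss6*, *Id1*, *Smad7*, *Alad* and *Ppox*, with the 5 genes most like *Hamp* and *Tfrc* over mice. Other genes (*Alas2*'s lower doses, *Noct* and its neighbors, *Uros*, *Heph*, *Flvcr1*, *Tmem14c*, *Abcb10*, the remaining hepcidin control and heme breakdown genes, *Slc25a37*) were named after their values were seen. The single macrophage, hepatocyte and acute phase genes named at 30 µg/kg were likewise picked after their values were seen. Of the erythroid markers, *Ahsp* had no match in the annotation and *Epb42* was not detected. Of the genes listed at first, 2 are not reported here.

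Alternatives were DESeq2 size factors, library totals, the test of DESeq2 1.42.0, other filters on low counts, fits of 2 groups, other pseudocounts and each mouse left out in turn. A fit without mice L21, L24 and L40 was added after the data were seen. Nothing says whether mice shared a litter or cage, and the p-values measure the spread between these mice.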

Additional observations from a re-analysis of the deposited data

Results flagged for a closer look

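In 6 of 90 sets of 5 mice (10 members in 9 groups), 1 mouse lay far from the other 4, with a gap above 0.71 of the whole range. Chance flags about 1 in 20 such sets, which is 4.5 of 90. For *Hamp* these were mouse L40 at 0.1 µg/kg, with 1013 CPM against 566 to 671 in the others, mouse L59 at 3 µg/kg, with 874 CPM against 411 to 522, and mouse L68 at 10 µg/kg, with 674 CPM against 381 to 440. L40 was also a mouse with high acute phase transcripts, with *Saa1* at 348 CPM. For *Slc40a1* they were the vehicle mouse L4, with 241 CPM against 161 to 183, and mouse L24 at 0.01 µg/kg, with 331 CPM against 152 to 197. L24 also had *Marco*, a macrophage receptor, at 144 CPM against 1.79 to 6.12 CPM in the vehicle mice. For *Alas1* it was the same vehicle mouse L4, with 1323 CPM against 652 to 787.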

How the results depend on the processing

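The 3 calls at 30 µg/kg (*Hamp*, *Hamp2*, *Slc40a1*) held in every fit that left out 1 mouse (3 to 3 members), while the fit of the 2 groups alone called 5 members, *Cpox* and *Hpx* added. At 10 µg/kg the main count of 1 became 3 with library totals (*Urod* and *Cpox* added), 5 with the 2 groups alone and 2 without L21, L24 and L40. Leaving out single mice gave 1 to 2 members at 3 µg/kg, where *Cpox* was lost without vehicle mouse 1, 3 or 5 or mouse 2, 3 or 5 at 3 µg/kg, and 0 to 1 from 10 to 30 µg/kg, where *Hamp2* passed without mouse 4 at 30 µg/kg. The counts of 0 at 1 µg/kg and below and the 4 at any dose moved under no alternative past 1.5 times, although at any dose *Hamp* was lost with library totals and *Urod* with genes of at least 1 read. The rise in the *Hamp* to *Hamp2* log2 ratio ranged from 2.33 to 3.01 with a mouse left out. Signs turned for values near 0. *Trf* at 30 µg/kg was -0.0011 with genes of at least 1 read, -0.003 with the 2 groups alone, -0.0102 without the 3 mice and -0.0751 to 0.0891 with a mouse left out. *Alas1* ran from -0.0552 to 0.3734 and *Ftl1* from -0.044 to 0.2441 with a mouse left out. Library totals turned *Urod* to 0.15 and *Fech* to 0.10. No paired analysis was possible because the labels give mice no replicate numbers shared between groups. Precision was limited by the spread between 5 mice more than by reads, with at least 139 reads for every member in every mouse.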
